A study of Mus musculus with 2 samples.

Results

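The genes described here are 35 mouse genes of glutamate signalling: 4 AMPA receptor subunits, 7 NMDA receptor subunits, 5 kainate receptor subunits, 1 delta receptor, 7 metabotropic receptors, 6 transmembrane AMPA receptor regulatory proteins (TARPs), 2 Neto subunits and 3 vesicular glutamate transporters. They were taken by symbol from a list, with no cut-off on their values, and each of the 35 symbols matched 1 Ensembl gene of the 43346 listed in both libraries. The tissue was whole forebrain of healthy B6NCrl mouse embryos at 16.5 days, male and female embryos pooled, and the labels name no treatment or other genotype. There was 1 group with 2 pools that the labels number as biological replicates, so no condition was compared: pool 2 (replicate 2) came from 41 embryos, and the number in pool 1 (replicate 1) is not given in the labels used here. From each pool, 10 ng of total RNA longer than 200 nucleotides was sequenced with synthetic spike-in RNAs added, and the deposited tables hold estimated read counts and TPM, a level per length of transcript that can be set side by side between genes. Estimated counts on genes totalled 26957198 in pool 2 and 31211128 in pool 1, and the 35 genes held 46244 counts in pool 2 and 60431 counts in pool 1.

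Glutamate is the main excitatory transmitter of the brain. AMPA, NMDA and kainate receptors are ion channels built from 4 subunits each and named after the agonist that selects them, and metabotropic receptors act through G proteins. TARPs and Neto proteins bind AMPA and kainate receptors and set their trafficking and gating, and vesicular transporters load glutamate into synaptic vesicles. In rodent forebrain, the NMDA subunit GluN2B dominates before birth and GluN2A increases after it, and the flip forms of the AMPA subunits precede the flop forms.

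The 2 pools differed in marker genes, and those values are given before any difference between pools. Summed TPM of 8 pan-neuronal markers was 3916 in pool 2 and 4294 in pool 1. Cortical glutamatergic markers summed to 934 TPM in pool 2 and 759 TPM in pool 1, and all 7 were higher in pool 2. Hypothalamic markers summed to 14.9 TPM in pool 2 and 46.5 TPM in pool 1. All 6 of them that had enough counts were lower in pool 2. Thalamic markers summed to 123 TPM in pool 2 and 143 TPM in pool 1. Of the 6 thalamic markers with enough counts, 5 were lower in pool 2. The other, Lhx2, held 76.0 TPM of the sum in pool 2 and 58.1 TPM in pool 1. Meningeal fibroblast markers summed to 453 TPM in pool 2 and 194 TPM in pool 1. Progenitor markers summed to 778 TPM in pool 2 and 607 TPM in pool 1. The midbrain and hindbrain markers Hoxa2 and Hoxb4 had no reads in either library, and the whole list of 6 summed to 3.23 TPM in pool 2 and 0.66 TPM in pool 1. In bulk tissue, fewer cells of a type and less RNA per cell cannot be told apart. Each value after ± is the SD over these 2 pools.

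Of the 35 genes, 30 (85.7%) reached 1 TPM in each library, and 60.7% of 21474 protein-coding genes did so. A level of 10 TPM in each library was reached by 15 of the 35 (42.9%) and by 40.9% of protein-coding genes, so the shares were close at this level. The summed level of the 35 genes was 665 TPM in pool 2 and 744 TPM in pool 1. The AMPA subunits made up the highest sum, 317 ± 16.4 TPM (SD, n = 2), followed by metabotropic receptors at 81.3 ± 15.2 TPM and NMDA subunits at 73.4 ± 16.9 TPM. Neto subunits summed to 64.6 ± 6.14 TPM, TARPs to 59.7 ± 2.25 TPM, kainate subunits to 55.3 ± 6.07 TPM and vesicular transporters to 50.7 ± 4.12 TPM. The order of single genes by mean TPM opened with Gria2, Neto2, Gria1, Grin2b, Slc17a6 and Cacng4. Of the 34 steps between neighbours in that order, 6 separated genes whose libraries did not overlap: Gria2 over Neto2, Gria1 over Grin2b, Grik2 over Grin1, Slc17a7 over Grik1, Grin2d over Grin3b and Grin2c over Grm6. The other neighbours lay within the spread between pools.

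**Figure D1:**
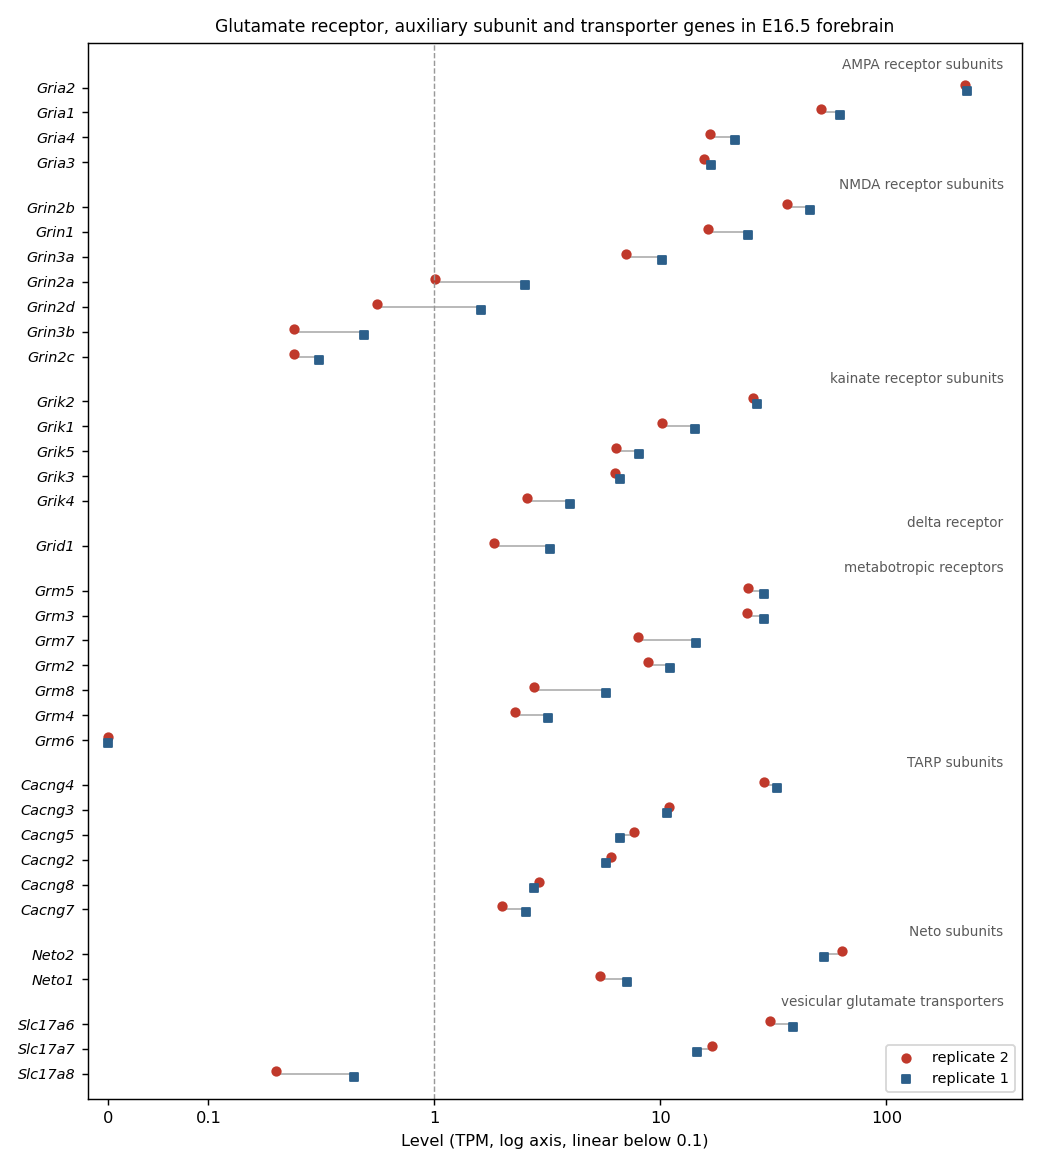
Level of each of the 35 genes in TPM (log axis, linear below 0.1), grouped by role, with replicate 2 as circles drawn above replicate 1 as squares and a dashed line at 1 TPM. Gria2 stands above all others at 222 and 228 TPM, and Grm6 is at 0 in both libraries.

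The AMPA receptor genes were all well above 10 TPM. Gria2 (ENSMUSG00000033981, chr3:80681450-80802835, minus strand, mm10), which encodes the subunit GluA2 that makes the channel impermeable to calcium once its transcript is edited, had 222 TPM in pool 2 and 228 TPM in pool 1. It was above 97.0% of protein-coding genes. Gria1, which encodes GluA1, had 51.2 TPM in pool 2 and 62.3 TPM in pool 1. Gria4, which encodes GluA4, had 16.5 TPM in pool 2 and 21.4 TPM in pool 1, and Gria3, which encodes GluA3, had 15.7 TPM in pool 2 and 16.7 TPM in pool 1, so the libraries of these 2 genes overlapped. Gria2 held 71.1 ± 2.30% of the summed AMPA TPM (SD, n = 2), Gria1 17.9 ± 1.55%, Gria4 5.96 ± 0.78% and Gria3 5.10 ± 0.03%. As a log2 ratio within each library, Gria2 over Gria1 was 1.99 ± 0.17, Gria2 over Gria4 was 3.58 ± 0.24 and Gria2 over Gria3 was 3.80 ± 0.04. Pairs were called apart when their ratio had 1 sign in both libraries and a mean of over 3 SD, and all of these were.

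The lead of Gria2 was smaller when only coding transcripts were counted. Only 45.2% of Gria2 TPM in pool 2 and 44.8% in pool 1 was assigned to transcripts with a complete coding sequence in GENCODE M21. Retained-intron transcripts took 42.2% in pool 2 and 46.0% in pool 1, and a transcript annotated for nonsense-mediated decay took 12.6% in pool 2 and 9.18% in pool 1. The complete coding transcripts of Gria1 held 98.5% of its TPM in pool 2 and 96.6% in pool 1. Counting complete coding transcripts only, an alternative added after the values were seen, Gria2 averaged 101 ± 1.36 TPM and held 53.5% of the AMPA sum. The log2 ratio of Gria2 over Gria1 was then 0.88 ± 0.16. Gria2 was therefore the highest AMPA gene by either measure, by different margins.

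Each AMPA gene has a pair of alternative exons of 115 bases, flip and flop, that lie side by side in the gene and encode part of the ligand-binding domain near the last membrane segment. They set how fast the channel desensitizes and recovers. The sequences of Gria1 and Gria2, the highest AMPA genes, are shown because the share of flip over flop rests on these bases. In Gria1, flip is at chr11:57310608-57310722 and flop at chr11:57309769-57309883, plus strand. In Gria2, flip is at chr3:80690404-80690518 and flop at chr3:80691320-80691434, minus strand. All are coding exons, read 5′ to 3′ from GENCODE M21 transcripts (GRCm38, the same assembly as mm10). Capitals mark the bases that differ between flip and flop of the same gene.
Gria1 flip: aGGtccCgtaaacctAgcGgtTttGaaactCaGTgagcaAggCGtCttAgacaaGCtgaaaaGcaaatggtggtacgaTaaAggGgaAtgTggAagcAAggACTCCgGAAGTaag
Gria1 flop: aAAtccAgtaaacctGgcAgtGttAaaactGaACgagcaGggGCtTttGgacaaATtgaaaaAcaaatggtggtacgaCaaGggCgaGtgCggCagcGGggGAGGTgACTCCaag
Gria2 flip: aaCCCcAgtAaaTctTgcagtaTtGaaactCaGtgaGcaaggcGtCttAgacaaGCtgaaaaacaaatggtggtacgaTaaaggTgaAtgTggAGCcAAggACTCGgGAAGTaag
Gria2 flop: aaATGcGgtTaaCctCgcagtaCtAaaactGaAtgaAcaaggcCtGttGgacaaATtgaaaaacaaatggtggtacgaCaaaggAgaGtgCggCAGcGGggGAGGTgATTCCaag

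Flip and flop differed at 36 of the 115 bases in Gria1 and in Gria2, at 32 in Gria3 and at 31 in Gria4. Across genes, the flip exons of Gria1, Gria3 and Gria4 differed from that of Gria2 at 13, 9 and 9 bases. The flop exons differed from that of Gria2 at 14, 7 and 7 bases. Within each gene the forms were thus further apart than the same form was from Gria2. In all 4 genes the flop exon came first in the direction of transcription.

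Transcripts with the flip exon held most of the TPM in all 4 genes when only transcripts with 1 of the 2 exons were counted. In Gria1, flip was 88.1% in pool 2 and 85.7% in pool 1. In Gria2, flip was 83.6% in pool 2 and 83.5% in pool 1. In Gria3, flip was 74.7% in pool 2 and 76.5% in pool 1, the lowest of the 4 in both libraries. In Gria4, flip was 95.2% in pool 2 and 86.9% in pool 1, the highest of the 4 in both libraries. The only Gria4 flip transcript is 5441 bases long in the deposited table but 5352 bases in GENCODE M21. Its exons were read from the latter, so the flip share of Gria4 is less certain. The flip and flop transcripts also differ in length outside these exons, since the Gria2 flip transcript is 4026 bases long and the flop transcript 10371 bases. By estimated counts in place of TPM, flip was 66.2% in pool 2 and 66.0% in pool 1 in Gria2, and 85.4% in pool 2 and 86.0% in pool 1 in Gria3. The lowest flip share of the 4 genes was thus that of Gria3 by TPM but that of Gria2 by counts. Flip stayed above flop in each gene and library by both measures. The flop transcript of Gria4 had only 30.1 estimated counts in pool 2 and 123 in pool 1.

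**Figure D2:**
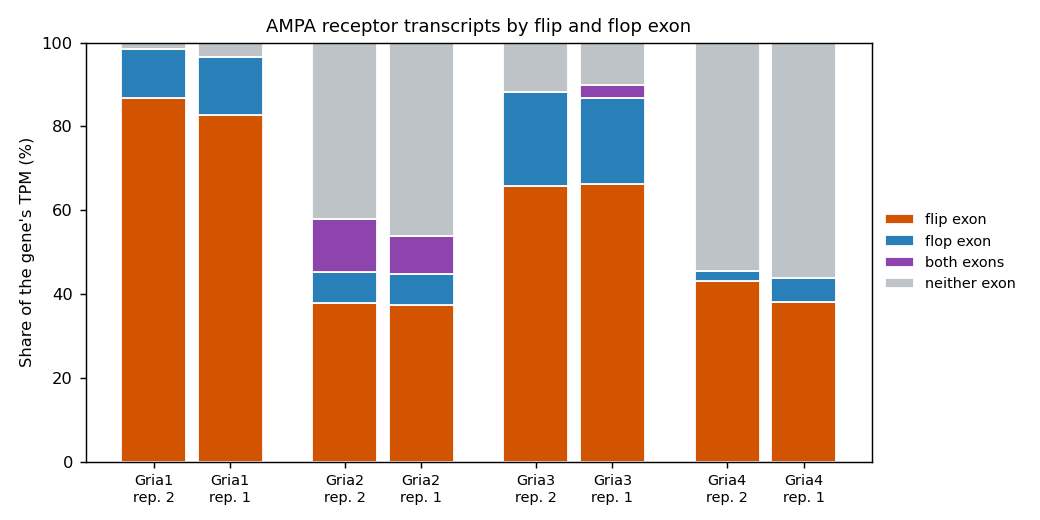
Share of each AMPA gene's TPM (vertical axis, percent) in transcripts with the flip exon, the flop exon, both or neither, with replicate 2 left of replicate 1 for each gene. Flip exceeds flop in all bars, and transcripts with neither exon hold 42.2% and 46.0% of Gria2 and 54.6% and 56.1% of Gria4.

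The NMDA receptor genes were led by Grin2b and Grin1. Grin2b (chr6:135713233-136173511, minus strand), which encodes GluN2B, had 36.2 TPM in pool 2 and 45.8 TPM in pool 1. Grin1, which encodes the obligatory subunit GluN1, had 16.2 TPM in pool 2 and 24.5 TPM in pool 1. Grin3a, whose subunit GluN3A lowers calcium entry in immature neurons, had 7.02 TPM in pool 2 and 10.2 TPM in pool 1. The log2 ratio of Grin1 over Grin2b was -1.03 ± 0.18, so the gene of the obligatory subunit was below that of GluN2B on this scale. The lead transcript of Grin2b was a coding fragment of 703 bases with 41.3% of its TPM in pool 2 and 43.4% in pool 1 but only 142 estimated counts in pool 2 and 226 estimated counts in pool 1. On complete coding transcripts only, Grin1 over Grin2b was -0.62 ± 0.15.

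The remaining NMDA genes were low. Grin2a, which encodes GluN2A, had 1.01 TPM in pool 2 and 2.51 TPM in pool 1 from 32 counts in pool 2 and 74 counts in pool 1. Grin2d, which encodes the GluN2D of interneurons and diencephalon, had 0.56 TPM in pool 2 and 1.61 TPM in pool 1. Grin2c, known from cerebellar granule cells, had 0.24 TPM in pool 2 and 0.31 TPM in pool 1. Grin3b had 0.24 TPM in pool 2 and 0.49 TPM in pool 1 from 9 counts in pool 2 and 16 counts in pool 1, and 1059 bases of its exons overlap those of Tmem259 on the opposite strand, which had 369 counts in pool 2 and 428 counts in pool 1. The strand of the reads is not stated in the sources at hand, so the counts of Grin3b are uncertain. Grin2b held 93.2 ± 2.87% of the GluN2 TPM, with Grin2a at 3.83 ± 1.65%, Grin2d at 2.34 ± 1.22% and Grin2c at 0.62 ± 0.01%.

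By TPM, the Grin2a level rested mainly on a short transcript. A retained-intron transcript, 1099 bases long in the deposited table, held 70.5% of Grin2a TPM in pool 2 and 84.7% in pool 1. It had 11.2 of the 32 estimated counts in pool 2 and 39.9 of the 74 in pool 1. Complete coding transcripts of Grin2a had 0.29 TPM in pool 2 and 0.38 TPM in pool 1. The log2 ratio of Grin2b over Grin2a was 4.68 ± 0.69 over all transcripts and 6.06 ± 0.06 over complete coding ones. The log2 ratios of Grin2b over Grin2c, Grin2b over Grin2d and Grin3a over Grin3b were 7.22 ± 0.02, 5.42 ± 0.84 and 4.62 ± 0.35. All these pairs were apart.

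Grin1 has 3 places where its coding transcripts differ. The N1 cassette near the amino terminus loosens block by protons and zinc, the C1 cassette carries an endoplasmic reticulum retention signal, and the end of the protein is either C2 or C2-prime. The cassettes are shown whole, with no capitals, because their inclusion separates the receptor forms. N1 (63 bases) is at chr2:25311343-25311405 and C1 (111 bases) at chr2:25294438-25294548, both coding exons on the minus strand of GRCm38.
Grin1 N1: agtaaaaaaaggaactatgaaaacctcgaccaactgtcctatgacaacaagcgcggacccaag
Grin1 C1: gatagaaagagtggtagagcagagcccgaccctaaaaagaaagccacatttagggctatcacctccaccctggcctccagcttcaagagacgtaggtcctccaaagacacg

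The C2-prime end, reached by an acceptor site 356 bases further along the last exon, was the main end in both pools. It held 75.0% of the TPM of coding Grin1 transcripts in pool 2 and 74.9% in pool 1. Transcripts with C1 held 59.0% in pool 2 and 39.9% in pool 1, so C1 was the main form in one pool and the minor form in the other. Transcripts with N1 held 11.0% in pool 2 and 0% in pool 1, where none of the 1248 estimated counts of coding transcripts was assigned to them. By posterior mean TPM the N1 share was 13.0 ± 7.78% over both pools, against 5.52 ± 7.81% by TPM. The 0% therefore does not show that N1 was absent from pool 1. The C2-prime transcripts rested on 540 estimated counts in pool 2 and 914 estimated counts in pool 1, divided between transcripts by the authors' model.

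The kainate receptor genes were all detected. Grik2, which encodes the pore-forming GluK2, had 25.6 TPM in pool 2 and 26.7 TPM in pool 1. Grik1, which encodes GluK1, had 10.1 TPM in pool 2 and 14.2 TPM in pool 1, and Grik3, which encodes GluK3, had 6.32 TPM in pool 2 and 6.63 TPM in pool 1. Grik5, which encodes the high-affinity subunit GluK5 that needs a partner to form channels, had 6.33 TPM in pool 2 and 8.08 TPM in pool 1. Grik4, which encodes GluK4 of the same kind, had 2.57 TPM in pool 2 and 3.99 TPM in pool 1. Grik2 held 47.5 ± 3.87% of the kainate TPM. The log2 ratio of Grik2 over Grik1 was 1.13 ± 0.30, Grik2 over Grik3 was 2.02 ± 0.01, and Grik5 over Grik4 was 1.16 ± 0.20. Grik5 over Grik2 was -1.87 ± 0.21. All 4 pairs were apart. The lead Grik2 transcript, with 77.4% of its TPM in pool 2 and 79.4% in pool 1, is not in GENCODE M21, so no coding class was given to it. Grid1, the delta receptor GluD1 that binds cerebellins and organizes synapses, had 1.84 TPM in pool 2 and 3.25 TPM in pool 1.

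The metabotropic receptor genes were led by a gene of group I and a gene of group II. Grm5, which encodes the Gq-coupled mGlu5, had 24.5 TPM in pool 2 and 28.9 TPM in pool 1. Grm3, a Gi-coupled receptor of group II found in glia and neurons, had 24.2 TPM in pool 2 and 28.8 TPM in pool 1. These 2 genes did not separate over all transcripts, with a log2 ratio of Grm5 over Grm3 of 0.01 ± 0.01. On complete coding transcripts Grm5 was below Grm3 (-0.18 ± 0.02), and the pair was apart. This measure leaves out a Grm5 transcript that is not in GENCODE M21, with 3.16 TPM in pool 2 and 2.83 TPM in pool 1. The order of these genes is therefore not settled by it. Grm2, the other group II gene, had 8.85 TPM in pool 2 and 11.1 TPM in pool 1, with a log2 ratio of Grm3 over Grm2 of 1.42 ± 0.05. Grm3 held 72.7 ± 0.68% of the group II TPM.

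The group III receptors sit mostly on presynaptic terminals, and each was below Grm5 and Grm3 in both libraries. Grm7 had 7.94 TPM in pool 2 and 14.4 TPM in pool 1, Grm8 had 2.75 TPM in pool 2 and 5.76 TPM in pool 1, and Grm4 had 2.27 TPM in pool 2 and 3.18 TPM in pool 1. Grm7 held 61.4 ± 0.26% of the group III TPM, with log2 ratios of 1.42 ± 0.15 over Grm8 and 1.99 ± 0.26 over Grm4. Grm6, the receptor of retinal ON bipolar cells, had 0 counts in both libraries. A floor of 3 counts in a library corresponds to 0.0586 TPM in pool 2 and 0.0492 TPM in pool 1 for Grm6. The lead transcript of Grm8 differed between pools. A coding fragment of 1238 bases held 42.3% of Grm8 TPM in pool 1 and had no counts in pool 2, where a complete coding transcript led with 65.1%. In Grm5, no counts in either library went to the transcript that carries its annotated cassette of 96 bases. The Grm5 transcript that is not in GENCODE M21, and whose exons are unknown here, held 12.9% in pool 2 and 9.80% in pool 1. It is 3612 bases long, against 3516 bases for a complete coding transcript without the cassette. The lack of counts therefore does not show that the cassette form was absent.

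The TARPs were led by Cacng4, which encodes TARP gamma-4 and had 28.7 TPM in pool 2 and 32.9 TPM in pool 1. Cacng3 (gamma-3) had 10.9 TPM in pool 2 and 10.8 TPM in pool 1, and Cacng5 (gamma-5, a type II TARP) had 7.64 TPM in pool 2 and 6.62 TPM in pool 1. Cacng2, which encodes stargazin (gamma-2), had 6.02 TPM in pool 2 and 5.74 TPM in pool 1. Cacng8 (gamma-8, abundant in adult hippocampus) had 2.89 TPM in pool 2 and 2.76 TPM in pool 1, and Cacng7 (gamma-7) had 1.99 TPM in pool 2 and 2.53 TPM in pool 1. Cacng4 held 51.5 ± 3.07% of the TARP TPM. The log2 ratios of Cacng4 over Cacng8 and Cacng4 over Cacng2 were 3.44 ± 0.19 and 2.38 ± 0.19. Cacng2 over Cacng3 was -0.88 ± 0.03 and Cacng7 over Cacng5 was -1.66 ± 0.39, and all 4 pairs were apart. Cacng2 and Cacng3 did not separate on complete coding transcripts (-0.28 ± 0.37). Coding fragments held 44.2% of Cacng3 TPM in pool 2 and 22.2% in pool 1.

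Some TARP genes neighbour each other on a chromosome. Cacng4 and Cacng5 lie 80.0 kb apart on chromosome 11, and Cacng7 and Cacng8 lie 22.5 kb apart on chromosome 7. Cacng4 was above Cacng5 in both libraries. Cacng8 was above Cacng7 in both libraries, with means of 2.83 ± 0.09 TPM and 2.26 ± 0.38 TPM.

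Neto2, an auxiliary subunit of kainate receptors that also binds the chloride transporter KCC2, had 63.6 TPM in pool 2 and 53.2 TPM in pool 1, second only to Gria2 among the 35 genes by mean level. Its libraries overlapped those of Gria1. Neto1, its paralog that binds kainate and NMDA receptors, had 5.40 TPM in pool 2 and 7.11 TPM in pool 1. Neto2 held 90.2 ± 2.80% of the Neto TPM, and the log2 ratio of Neto2 over Neto1 was 3.23 ± 0.46.

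Among the vesicular transporters, Slc17a6, which encodes VGLUT2 and is high in thalamus, hypothalamus and immature cortical neurons, had 30.6 TPM in pool 2 and 38.7 TPM in pool 1. Slc17a7, which encodes VGLUT1, the main transporter of adult cortex and hippocampus, had 17.0 TPM in pool 2 and 14.5 TPM in pool 1. Slc17a8, which encodes VGLUT3 of scattered nonglutamatergic neurons, had 0.20 TPM in pool 2 and 0.44 TPM in pool 1 from 11 counts in pool 2 and 36 counts in pool 1. Slc17a6 held 64.1% of the transporter TPM in pool 2 and 72.1% in pool 1. The log2 ratio of Slc17a6 over Slc17a7 was 0.85 in pool 2 and 1.42 in pool 1 (1.13 ± 0.40), above 0 in both but under 3 SD. Slc17a7 over Slc17a8 was 5.73 ± 0.97. Of the 23 pairs compared over all families, 21 were apart, and the exceptions were Grm5 with Grm3 and Slc17a6 with Slc17a7.

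**Figure D3:**
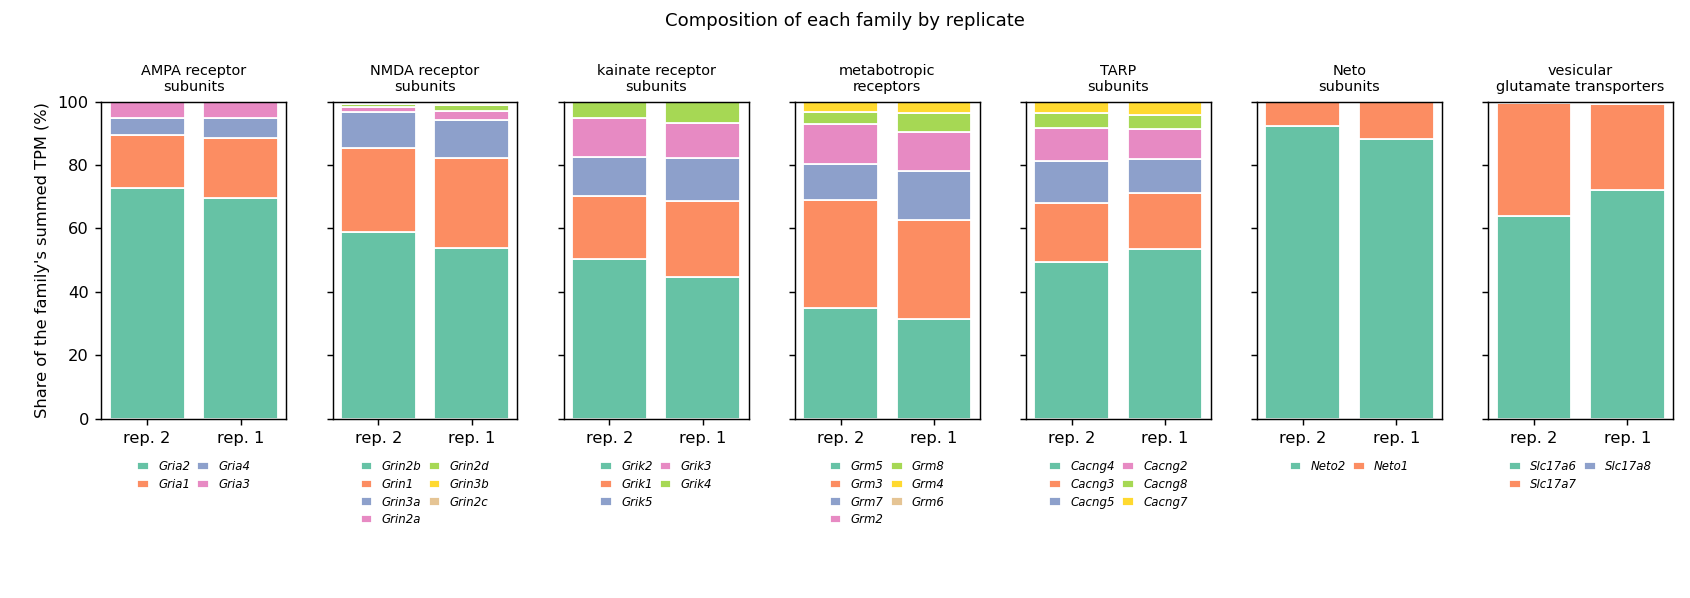
Share of each gene in the summed TPM of its family (vertical axis, percent), with replicate 2 left of replicate 1 in each panel. Gria2, Grin2b, Grik2, Cacng4, Neto2 and Slc17a6 lead their families in both libraries, with Gria2 at 72.7% and 69.4% and Neto2 at 92.2% and 88.2%.

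Most of the 35 genes were lower in pool 2 than in pool 1. The pools were compared by counts scaled with the trimmed mean of M values (TMM), as a log2 ratio of pool 2 over pool 1 with a 95% exact Clopper-Pearson interval. The interval covers counting error only, and with 1 library on each side no p-value was computed. A mean of 50 counts or more was required, which 31 of the 35 genes met. Grin2c, Grin3b, Grm6 and Slc17a8 did not.

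Of the 31 genes, 26 had a ratio below 0, as did 48% of the 13929 genes compared. The median log2 ratio of the 31 was -0.30, and that of all genes compared was 0.01. The interval lay wholly below 0 for 23 of the 31, against 24.1% of all genes, and wholly above 0 for 2 of the 31, against 26.5% of all genes. None of the 31 passed the rule of a 2-fold ratio with an interval that excludes equality, which 1.38% of all genes passed in either direction and 1.01% passed as lower in pool 2. Scaled to the spike-in RNAs instead, the median of the 31 was 0.25 and that of all genes 0.56, so the sign for the 31 genes turned. Their distance from all genes stayed at -0.31, as it must. Another scaling moves the ratios of all genes by nearly the same amount.

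By role, every receptor gene compared had a ratio below 0: 4 AMPA, 5 NMDA, 5 kainate, 1 delta and 6 metabotropic genes. The medians were -0.21 for AMPA, -0.58 for NMDA, -0.37 for kainate and -0.32 for metabotropic genes. The lowest ratios were those of Grin2a (-0.96, interval -1.62 to -0.36), Grid1 (-0.84, -1.11 to -0.57), Grm7 (-0.82, -0.98 to -0.66) and Grin2d (-0.80, -1.35 to -0.29). Grm8, Grin3a and Grin1 followed at -0.58 each. Gria2, with 14813 counts in pool 2 and 17992 counts in pool 1, had the ratio nearest to 0 among the AMPA genes (-0.05, -0.08 to -0.01). Grik3 (-0.09) and Grm4 (-0.29) had intervals that included 0.

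TARPs were divided. Cacng5 (0.19), Cacng2 (0.05) and Cacng8 (0.05) were above 0 and Cacng7 (-0.36), Cacng3 (-0.30) and Cacng4 (-0.19) were below it. Only Cacng3 and Cacng4 had intervals that excluded 0. Neto and vesicular transporter genes went opposite ways within each family. Neto2 was higher in pool 2 (0.24, 0.19 to 0.29) and Neto1 lower (-0.41, -0.63 to -0.20). Slc17a7 was higher in pool 2 (0.21, 0.06 to 0.36) and Slc17a6 lower (-0.35, -0.44 to -0.27).

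The marker lists differed between the pools too, in both directions. The median log2 ratio was 0.28 for 7 cortical glutamatergic markers, of which Neurod6, with 489 TPM in pool 2 and 389 TPM in pool 1, was the highest. It was -0.52 for 6 thalamic markers and -2.17 for 6 hypothalamic markers. Tcf7l2, a thalamic marker, had 22.5 TPM in pool 2 and 48.8 TPM in pool 1, and passed the 2-fold rule as lower in pool 2, as did 5 hypothalamic markers, Sim1, Otp, Avp, Trh and Crh. Lhx2, the highest gene of the thalamic list and named after its values were seen, went the other way, with 76.0 TPM in pool 2 and 58.1 TPM in pool 1 (log2 ratio 0.25, interval 0.17 to 0.33). The meningeal markers Col1a1 and Col1a2 and the hindbrain marker Gata3 passed the 2-fold rule as higher in pool 2. The pan-neuronal median was -0.19, with 6 of 8 lower, and the GABAergic median was -0.35, with 4 of 6 lower. Among the other lists, all 8 progenitor, 5 meningeal, 6 microglial and 5 endothelial markers were higher in pool 2. The part of these differences in the ratios of the glutamate genes was not tested.

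**Figure D4:**
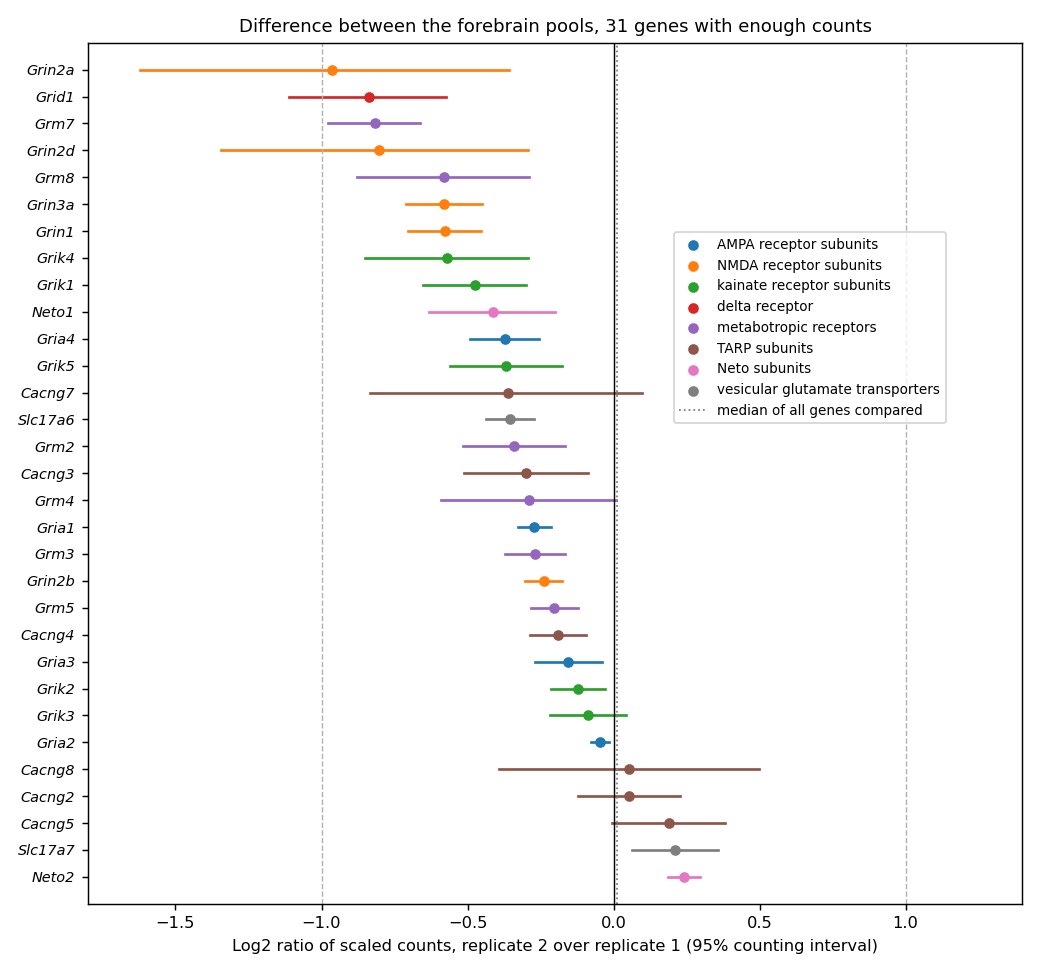
Log2 ratio of scaled counts, replicate 2 over replicate 1 (horizontal axis), for the 31 genes with enough counts, as points coloured by role with 95% counting intervals as bars and dashed lines at a 2-fold ratio. Of the 31 points, 26 lie left of 0, from Grin2a at -0.96 to Gria2 at -0.05, and Neto2 lies furthest right at 0.24.

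**Figure D5:**
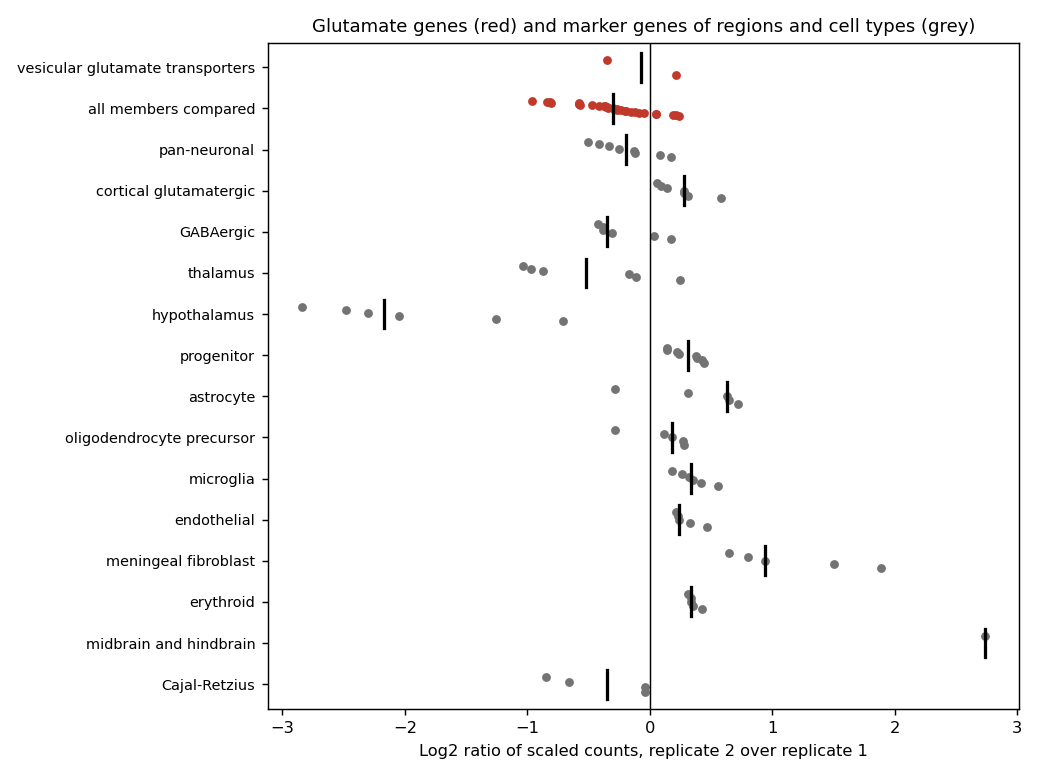
Log2 ratio of scaled counts, replicate 2 over replicate 1 (horizontal axis), for glutamate genes in red and marker genes in grey, with 1 point per gene and a black bar at each list's median. The 31 glutamate genes have a median of -0.30, cortical glutamatergic markers 0.28, thalamic markers -0.52 and hypothalamic markers -2.17.

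Ratios of TPM and of counts differed in genes whose effective length, which the authors' model takes from the transcripts it assigns reads to, differed between pools. Grin2d had a log2 TPM ratio of -1.52 and a count ratio of -0.80, with effective lengths of 5332 bases in pool 2 and 3208 bases in pool 1. Grm8 had -1.07 by TPM and -0.58 by counts, and Grin2a had -1.31 and -0.96. Cacng3 had 0.02 by TPM and -0.30 by counts. The effective length of Cacng3 was 1815 bases in pool 2 and 2241 bases in pool 1.

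The leading transcript was the same in both pools for 22 of the 24 genes with reads and 2 or more listed transcripts, and the exceptions were Grin3b and Grm8. Another 10 genes had 1 listed transcript. Of 119 transcripts listed for the 35 genes, 8 are not in GENCODE M21 and 20 have another length there. Exons of 18 of the 35 genes overlap those of another annotated gene, mostly small RNAs or antisense RNAs. Among the overlapping genes, Tmem259, beside Grin3b, had the most counts, and Grin1os, antisense to Grin1, came next with 8.56 counts in pool 2 and 26.7 counts in pool 1.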

How the data were processed

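Total RNA-seq of forebrain was analysed from 2 pools. Per the deposited sample notes, each library was quantified separately against mm10 with annotation M4, without pooling. Aligner, quantifier and read strand are not stated in the sources at hand. Expected counts (estimated counts, not normalized) per gene and transcript are the authors' values, per the file headers. TPM was deposited per effective length, scaled over all features with spike-ins (4.10% of TPM in pool 2, 5.93% in pool 1). The deposited FPKM values served as an alternative. The authors deposited each transcript's percent of its gene, per the file headers.

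Symbols, exons and sequences came from GENCODE M21 (GRCm38) by Ensembl ID, and 42462 of 43346 genes matched. Levels are TPM with the SD over both pools. Counts were rounded, scaled by TMM (edgeR 4.0.16, factors 0.992 in pool 2 and 1.01 in pool 1) and compared as log2 ratios with a prior count of 0.5, a minimum mean count of 50 and 95% exact Clopper-Pearson intervals (scipy 1.17.1). These intervals and floors of 3 counts cover counting error only. The comparison was tested on simulated data. Reads that fell on features other than genes, 1.62% and 2.40% of counts in pools 2 and 1, were left out of library sizes. Nothing in the labels says how the pools were made separate beyond their replicate numbers, so the spread may be partly technical.

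The 35 genes, other gene lists and marker lists were chosen with earlier results of these data known. All 35 are named, with the 3 highest genes and the lowest of each other list, and markers as sums, with up to 3 of the highest and any that passed the 2-fold rule. Alternatives were other units (FPKM, posterior mean TPM), minimums, pseudocounts, scalings (DESeq2 1.42.0 size factors, library totals, spike-ins), each pool alone and complete coding transcripts.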

Additional observations from a re-analysis of the deposited data

How the results depend on the processing

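No paired analysis was possible because there is 1 group. With 2 pools, 1 library decides much of each SD, and low counts limit Grin2a, Grin2c, Grin2d, Grin3b and Slc17a8. The number of genes that reached 1 TPM in each library was 30, and 15 at a minimum of 10 TPM. It ranged from 30 to 31 with a pool left out. On complete coding transcripts only, an alternative chosen after seeing the data, Gria2 held 53.5% of AMPA TPM and Cacng4 54.6% of TARP TPM, against 71.1% and 51.5% over all transcripts. There the log2 ratio of Grm5 over Grm3 was -0.18, of opposite sign to 0.01, with a Grm5 transcript that is not in GENCODE M21 left out. Kainate shares and the pairs with Grik2 have no value on complete coding transcripts, as the Grik2 transcripts used are not in GENCODE M21. Grik5 over Grik4 was 1.15 ± 0.20 on them. Spike-in scaling gave a median log2 ratio of 0.25 for the 31 genes and 8 of them below 0, where 5.31% of all genes were below 0 and their median was 0.56. The values as reported were -0.30 and 26, with 48% of all genes below 0. The number past the 2-fold rule was 0 at a minimum of 50 counts, and 1 with no minimum, where 4.46% of all genes passed, or with 20 counts, where 3.0% did. That gene was Slc17a8. At 1.5-fold it was 4 (Grin2a, Grid1, Grm7 and Grin2d), with 6.59% of all genes past that rule. With a pool left out, shares ranged from 69.4 to 72.7% for Gria2, 91.2 to 95.2% for Grin2b, 44.8 to 50.3% for Grik2, 49.3 to 53.7% for Cacng4, 88.2 to 92.2% for Neto2 and 64.1 to 72.1% for Slc17a6. Over all alternatives for counts, shares and medians, 60 values stayed within the limits set for them and 8 did not. For single pairs and exons, 178 values did and 4 did not. Many of the values within limits could not have fallen outside them. With 2 pools, a share, pair ratio or exon percent from 1 pool alone always lies within 1 SD of the mean. Settings with only protein-coding genes, or only transcripts of equal length for Gria1 to Gria3, removed nothing that was counted. These tallies are therefore no measure of how stable the results are. Posterior means and pseudocounts changed none of the calls on pairs. FPKM could not change them or the shares beyond rounding, as within a library it is TPM times a constant.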

Other observations

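Partner genes from lists outside the 35 were measured in the same pools. Of 16 other AMPA receptor partners, 15 reached 1 TPM in each library, as did 60.7% of all protein-coding genes. The highest were Cnih2, a cornichon that slows channel closing, with 264 TPM in pool 2 and 302 TPM in pool 1, Olfm1 with 191 TPM in pool 2 and 188 TPM in pool 1, and Olfm2 with 118 TPM in pool 2 and 143 TPM in pool 1. Shisa8 was the lowest, with 0.41 TPM in pool 2 and 0.50 TPM in pool 1. Of the 15 with enough counts, 12 had a log2 ratio of pool 2 over pool 1 below 0, with a median of -0.22. Of all genes compared, 48% had a ratio below 0. None of the 15 passed the 2-fold rule, which only 1.38% of all genes passed. All 9 genes of glutamate uptake and the glutamine cycle reached 1 TPM in each library. Slc38a2, a glutamine transporter, had 163 TPM in pool 2 and 128 TPM in pool 1. Slc1a3, the glial transporter GLAST, had 123 TPM in pool 2 and 102 TPM in pool 1. Glul, glutamine synthetase, had 114 TPM in pool 2 and 93.4 TPM in pool 1, and Slc1a6 was the lowest with 4.24 TPM in pool 2 and 5.94 TPM in pool 1. In this list 5 genes were higher in pool 2 and 4 lower, with a median of 0.05.

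Of the RNA editing enzyme family, the genes Adar, Adarb1 and Adarb2 averaged 28.6 ± 1.73 TPM, 14.0 ± 0.98 TPM and 11.2 ± 3.73 TPM (SD, n = 2). Adarb2 had the lowest log2 ratio of pool 2 over pool 1 among them (-0.70, interval -0.85 to -0.56). Partners of metabotropic signalling all reached 1 TPM in each library, with Gnao1, Gnaq and Gna11, which encode G protein alpha subunits, at 148 ± 4.47 TPM, 95.4 ± 9.10 TPM and 91.7 ± 2.37 TPM. Homer2, a scaffold that binds group I receptors, was the lowest at 4.19 ± 0.09 TPM. Of the listed enzymes of serine metabolism, Shmt2 averaged 52.2 ± 3.01 TPM and Srr, serine racemase, 38.4 ± 1.19 TPM. Dao, which degrades D-serine, had 0.04 TPM in pool 2 and 0 TPM in pool 1. Cajal-Retzius markers, 4 genes, summed to 106 TPM in pool 2 and 137 TPM in pool 1. Most of that difference was in Calb2, with 49.3 TPM in pool 2 and 77.1 TPM in pool 1. Lhx5 was also lower in pool 2, with 3.35 TPM in pool 2 and 5.99 TPM in pool 1. Reln (log2 ratio -0.04) and Trp73 (-0.04) had intervals that included 0. GABAergic markers summed to 398 TPM in pool 2 and 417 TPM in pool 1. Oligodendrocyte precursor markers summed to 48.7 TPM in pool 2 and 51.0 TPM in pool 1, but 4 of the 5 had a log2 ratio above 0 (median 0.18), and Olig1, with 27.4 TPM in pool 2 and 33.1 TPM in pool 1, was the exception. Microglial markers summed to 89.4 TPM in pool 2 and 67.4 TPM in pool 1, and endothelial markers to 149 TPM in pool 2 and 125 TPM in pool 1. Astrocyte markers summed to 184 TPM in pool 2 and 148 TPM in pool 1. Aldoc alone held 158 TPM of this in pool 2 and 127 TPM in pool 1. Of the 5 astrocyte markers, 4 were higher in pool 2, and Slc1a2 was lower (log2 ratio -0.29, interval -0.39 to -0.18). Erythroid markers summed to 13405 TPM in pool 2 and 10590 TPM in pool 1.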
